A study of Mus musculus with 48 samples.

Results

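The first step of induced browning in wild-type (WT) white preadipocytes was examined by comparing RNA-seq libraries of day 3 with libraries of day 0, 3 against 3, which are 6 of the 48 libraries of the series. The cells were chosen by their labels alone: WT genotype, C57BL/6 strain, white preadipocytes from inguinal white adipose tissue (iWAT), the subcutaneous depot of the groin, of mice aged 8 to 12 weeks. Stromal cells of the depot were grown to confluency on plates with a collagen coat and, according to the labels, received the differentiation medium 2 days later. The day 0 libraries hold the cells before this medium, and the day 3 libraries hold cells that the labels call differentiating preadipocytes. The medium contained insulin at 0.5 μg/ml, dexamethasone at 5 μM, IBMX at 0.5 mM, T3 at 1 nM and rosiglitazone at 1 μM and was given for 4 days, so at day 3 all 5 agents were still present. The agents were added together, and their separate effects cannot be told apart in these libraries. The labels name no day 3 library without the medium, so effects of the medium and of time in culture cannot be told apart. The labels do not say whether the 3 libraries of a day came from separate mice or cultures, and the p-values measure the spread between these libraries.

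Fat cell formation from a committed fibroblast runs as a relay of transcription factors. C/EBPβ and C/EBPδ come first and induce PPARγ and C/EBPα, which then sustain each other and switch on the genes of lipid storage. Each agent of the medium enters this relay by its own route: dexamethasone activates the glucocorticoid receptor, IBMX blocks phosphodiesterases so that cAMP accumulates, rosiglitazone is a PPARγ ligand, T3 is thyroid hormone, and insulin signals through its receptor. Confluent mouse preadipocyte lines also go through a last round of division soon after such a mixture is added. Whether the primary cells used here divide in this way was not tested. Fibroblast matrix and stress fibres are taken down as fat cells form. In beige or brown adipocytes the uncoupling protein UCP1 later lets mitochondria turn fuel into heat.

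The 6 libraries held 19872366 to 27594598 expected counts, the authors' estimate of reads per gene. The 10 genes with the most counts took 8.28% to 10.1% of a library, and mitochondrially encoded transcripts took 1.85% to 2.10% at day 0 and 2.73% to 3.41% at day 3. Replicates differed by more than sampling noise, so each was kept as 1 library. Fibroblast markers were plainly present at both days (Pdgfra, the PDGF receptor of adipose progenitors, had 341, 429 and 618 CPM at day 0 and 625, 479 and 965 at day 3). Of markers of other cells, none of 10 lymphocyte and none of 6 erythroid genes had enough counts to be tested, and the summed level of 10 endothelial genes was 16.2 to 29.3 CPM at day 0 and 8.79 to 23.4 at day 3. The 12 macrophage genes summed to 147 to 516 CPM at day 0 and 72.9 to 271 at day 3, most of it Lyz2, the lysozyme of macrophages, with 391, 220.2 and 98.3 CPM at day 0 and 46.99, 181 and 52.7 at day 3. Among 11 macrophage genes tested 1 fell (Ptprc, edgeR adjusted p = 0.0483). This number was 0 to 6 when single libraries were left out, with 6 without replicate 2 of day 3 and 2 without replicate 3 of day 0. In bulk RNA, fewer cells of a type and less RNA per cell cannot be told apart.

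Within 3 days of the medium, expression moved in both directions. Of 15139 genes tested, 3330 (22%) changed by at least 1.5-fold at an adjusted p below 0.05. Expression of 1478 (9.76%) rose and that of 1852 (12.2%) fell, and at 4-fold or more these numbers were 271 and 455. Levels in CPM are a gene's counts relative to the size of its library after TMM scaling, fold changes are day 3 over day 0 on the log2 scale with their standard error (SE), and adjusted p-values are Benjamini-Hochberg values of the quasi-likelihood test in edgeR. The median log2 fold change of all tested genes was 0.01. CPM of the 3 day 3 libraries did not overlap with those of day 0 for 7691 genes (50.8%), and this background applies to each statement on overlap. For gene lists, the 9.76% that rose, the 12.2% that fell and the median of 0.01 are the figures to hold beside each count. A gene with few counts at day 0 can enter the test through its day 3 counts alone, and list counts are therefore descriptions of the members tested.

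**Figure D1:**
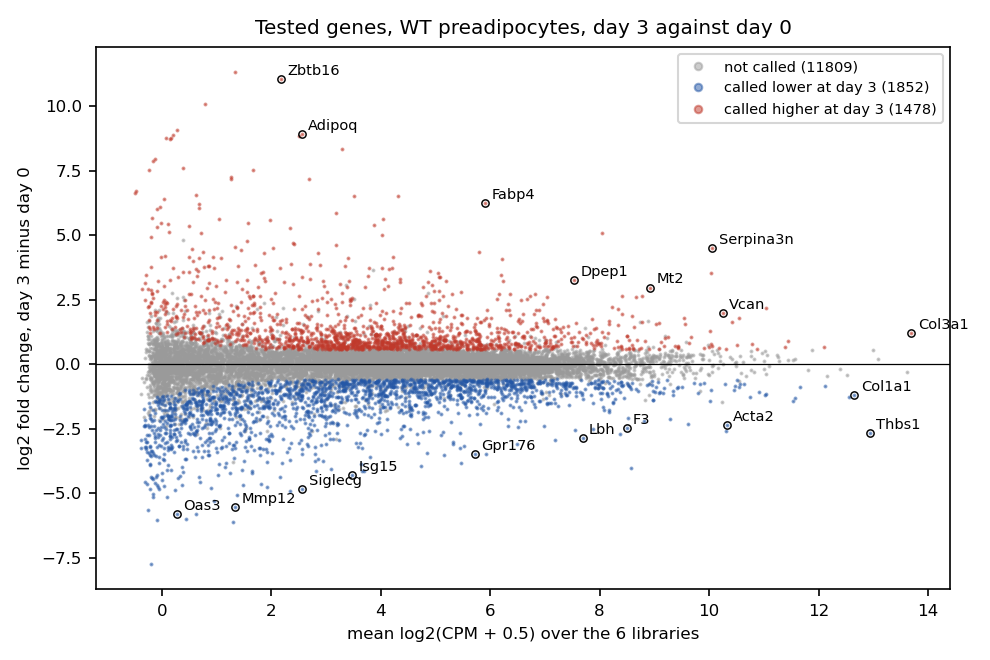
Log2 fold change of day 3 over day 0 (vertical axis) against the mean of log2(CPM + 0.5) over the 6 libraries (horizontal axis), with 1 point per tested gene, coloured where it passed the test, and circles around named genes. Of 15139 genes, 1478 rose and 1852 fell, and the changes spread to both sides of a median of 0.01.

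None of the 10 genes that rose with the smallest p-values was among the listed adipocyte markers, and several encode membrane or secreted proteins. Gprc5b, an orphan receptor of the G protein-coupled class (chromosome 7, 118972047 to 118995211, minus strand, mm10), had 22.3, 27.9 and 22.8 CPM at day 0 and 218, 240.0 and 223 CPM at day 3. Its day 3 libraries lay far above day 0 and close to one another, with a log2 fold change of 3.23 ± 0.11 (SE, edgeR adjusted p = 8.22e-05). Dpep1, a membrane dipeptidase, had 54.8, 56.7 and 68.7 CPM at day 0 and 605, 525 and 589.9 at day 3 (log2 fold change 3.26 ± 0.13). In both of these genes every day 3 library exceeded every day 0 library several times over. Il15ra, Mt2, Pde4d, Ackr3, Grik2, Emb and A2m were also among the 10 genes that rose with the smallest p-values, with log2 fold changes of 1.57 (Ackr3, a scavenging chemokine receptor) to 5.01 (A2m, a protease inhibitor of plasma). The steepest of the 10 that fell was Siglecg, a sialic acid-binding receptor (chromosome 7, 43408204 to 43418358, plus strand, mm10), with 21.8, 27.5 and 26.9 CPM at day 0 and 1.08, 0.703 and 0.841 CPM at day 3. Gpr176, an orphan receptor, had 178, 168 and 175 CPM at day 0 and 18.5, 15.3 and 12.7 at day 3 (log2 fold change -3.48 ± 0.15, edgeR adjusted p = 8.22e-05). For both receptors all 3 day 3 libraries were far below day 0. Fam84b, Raet1d, Rgs3, Pdlim1, Phgdh, Inpp5a, Lbh and Adamts6 made up the rest, with log2 fold changes from -2.905 (Fam84b) to -1.24 (Inpp5a).

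Ranked by size, the genes that rose included several with no or hardly any counts at day 0. Zbtb16, the zinc finger factor PLZF, had a single count among the 3 day 0 libraries and 3313 at day 3, a count ratio of 2992 (95% interval from counting error 536.7 to 118200), and its CPM at day 3 were 26.5, 37.2 and 63.1. Sptssb, a subunit of serine palmitoyltransferase, was at 0 counts in all day 0 libraries and had 8.71, 9.23 and 23.1 CPM at day 3, at least 102.2-fold higher. Ripply1 and Serpina3k were likewise at 0 at day 0 and at least 42.75-fold and 18.42-fold higher at day 3 (bounds over the group, against a floor of 3 counts per library). Serpina3k and Serpina3m belong to a family of near-identical protease inhibitors whose reads RSEM divides among copies, so their single values are uncertain. Adipoq, Cidec, Car3, Plin1 and the amino acid transporter Slc36a2 filled most other places. On the falling side, Tnnt2, the cardiac troponin T, went from 201 counts over the day 0 libraries to 3 at day 3, a count ratio of 0.0135 (95% interval from counting error 0.00276 to 0.04). Mmp12, Gjb2, Sync and Esm1 had log2 fold changes from -5.55 (Mmp12) to -4.89 (Esm1), although Gjb2 lost its call without a filter on low counts and Mmp12 in limma-voom. Fcrls fell as well (-5.802 ± 1.26), with a call that was lost without replicate 3 of day 3 (-9.85 to -4.66 over the refits that each omit 1 library). Apol9a, Apol9b and Oas2, which interferons are known to induce, were also among the 10 steepest, with log2 fold changes of -4.897, -6.12 and -4.81.

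**Figure D2:**
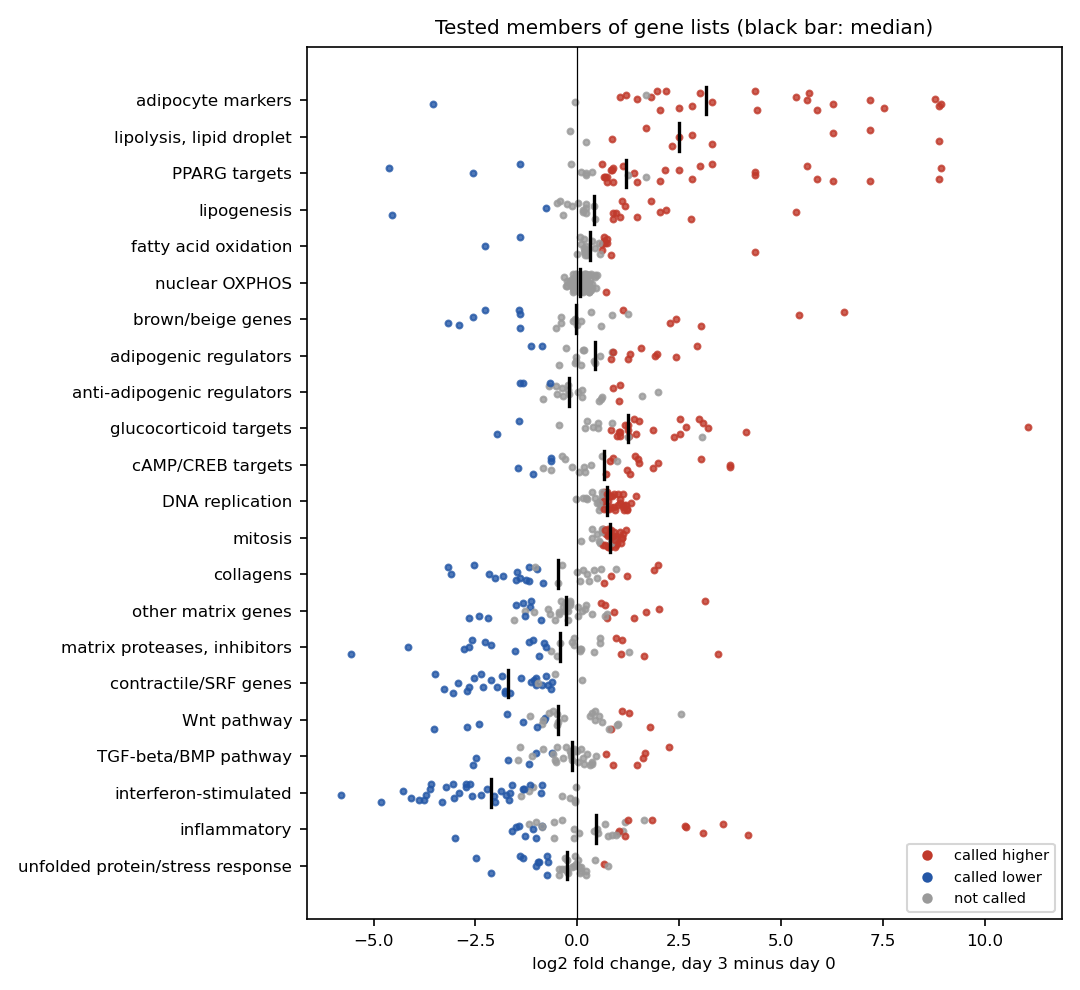
Log2 fold change of day 3 over day 0 (horizontal axis) for the tested members of 22 gene lists (rows), 1 point per gene, coloured where it was called, with a black bar at the list's median. Lists of adipocyte, lipolysis and cell cycle genes lean to higher, and lists of contractile and interferon-stimulated genes lean to lower, against 9.76% and 12.2% of all tested genes.

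The later factors of the adipogenic relay had risen by day 3. Pparg, the master regulator of fat cell formation (chromosome 6, 115360951 to 115490399, plus strand, mm10), had 2.92, 4.34 and 2.78 CPM at day 0 and 11.5, 22.98 and 18.7 CPM at day 3. All 3 day 3 libraries were higher than all of day 0, with replicate 1 the lowest (log2 fold change 2.41 ± 0.29, edgeR adjusted p = 0.00185). Cebpa, its partner, had 5.81, 6.35 and 5.75 CPM and then 24.2, 58.1 and 53.3 CPM (log2 fold change 2.92 ± 0.33, edgeR adjusted p = 0.00179), again with replicate 1 lowest and no overlap. Of the early factors, Cebpb rose from 16.7, 10.2 and 12.02 to 24.95, 20.8 and 23.5 CPM (log2 fold change 0.84 ± 0.19, edgeR adjusted p = 0.0152), while Cebpd had 29.2, 19.7 and 27.7 and 44.9, 27.4 and 65.9 CPM and did not pass the test (edgeR adjusted p = 0.0906). Cebpd was called without replicate 2 of day 3, in DESeq2 and in the fit of 24 libraries (0.51 to 1.13 on the log2 scale over refits without 1 library). Of 25 genes listed as promoting fat cell formation 23 were tested, 9 rose and 2 fell, with a median log2 fold change of 0.43. Egr2, Klf9, Klf15 and the oxysterol receptor Nr1h3 were among those that rose, Klf6 and Zfp467 were the pair that fell, and Ebf1, Rxra, Creb1 and Stat5b were not called, with log2 fold changes of 0.16, 0.14, 0.08 and -0.27. Of 23 tested genes listed as opposing fat cell formation, 3 rose and 3 fell (median -0.21), and without replicate 3 of day 0 the number that rose was 5. Those that rose were Id2, Foxo1 and Nr2f1, with log2 fold changes of 1.05, 1.03 and 0.87. The zinc finger factor Klf2 and Ddit3 (CHOP), an inhibitor of C/EBP factors, fell, with log2 fold changes of -1.400 and -1.35. Dlk1 (Pref-1), the classical preadipocyte inhibitor, had 2.05, 2.46 and 7.31 CPM at day 0 and 8.93, 3.21 and 22.6 at day 3, which overlap, and was not called (edgeR adjusted p = 0.174). Gata2 and Gata3 were not called either, with log2 fold changes of -0.21 and -0.70.

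Most mature adipocyte genes rose, many from low levels and unevenly among the day 3 libraries. Of 30 listed markers 26 were tested, 23 rose and 1 fell, with a median log2 fold change of 3.16. This median ran from 2.798 without replicate 2 of day 3 to 4.34 in the fit of 24 libraries, which tests more genes. The number that rose was 21 to 26 when single libraries were left out. Fabp4, the fatty acid carrier of fat cells (chromosome 3, 10204088 to 10208576, minus strand, mm10), had 7.81, 5.55 and 8.25 CPM at day 0 and 220.1, 890.3 and 556 CPM at day 3. Adipoq, the hormone adiponectin, had 0.0418, 0.0894 and 0.283 CPM at day 0 and 21.1, 115 and 65.9 CPM at day 3. In both genes replicate 1 of day 3 was the lowest and replicate 2 the highest, yet each day 3 library was far above day 0 (log2 fold changes 6.27 ± 0.59 and 8.92 ± 0.97, edgeR adjusted p = 0.00103 and 0.0016). Adipoq lost its call in limma-voom. Cidec, which fuses lipid droplets, had 0.125, 0.224 and 0 CPM and then 28.2, 85.3 and 60.01 CPM (log2 fold change 8.87 ± 0.71). Plin1, the coat protein of the droplet, had 0.209, 0.0894 and 0.896 CPM and then 22.1, 83.8 and 63.7 CPM (log2 fold change 7.17 ± 0.81). The order of the 3 day 3 libraries was the same for Fabp4, Adipoq, Cidec and Plin1, with replicate 1 lowest and replicate 2 highest. Retn, the hormone resistin, was at 0 in every day 0 library and had 0.898, 2.72 and 3.197 CPM at day 3, at least 17.01-fold higher against a floor of 3 counts per library. The scavenger receptor Cd36 had 4.72, 1.43 and 1.27 CPM at day 0 and 39.5, 188 and 149 at day 3, and Acsl1, which activates fatty acids, had 13.2, 12.5 and 13.01 and 108, 386 and 295 CPM. Lpl, the lipoprotein lipase, was well expressed before the medium (413, 143 and 339.9 CPM) and scattered at day 3 (353, 1435 and 1090.1 CPM), so that the groups overlapped and it was not called (edgeR adjusted p = 0.0702). It passed the test without replicate 1 of day 3, in DESeq2 and in the fit of all 24 preadipocyte libraries (1.29 to 2.09 on the log2 scale over refits without 1 library). Sncg, γ-synuclein, was the marker that fell, from 12.6, 7.11 and 7.92 to 0.763, 1.099 and 0.539 CPM. Lep, Aqp7, Pck1 and Acvr1c had too few counts to be tested.

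**Figure D3:**
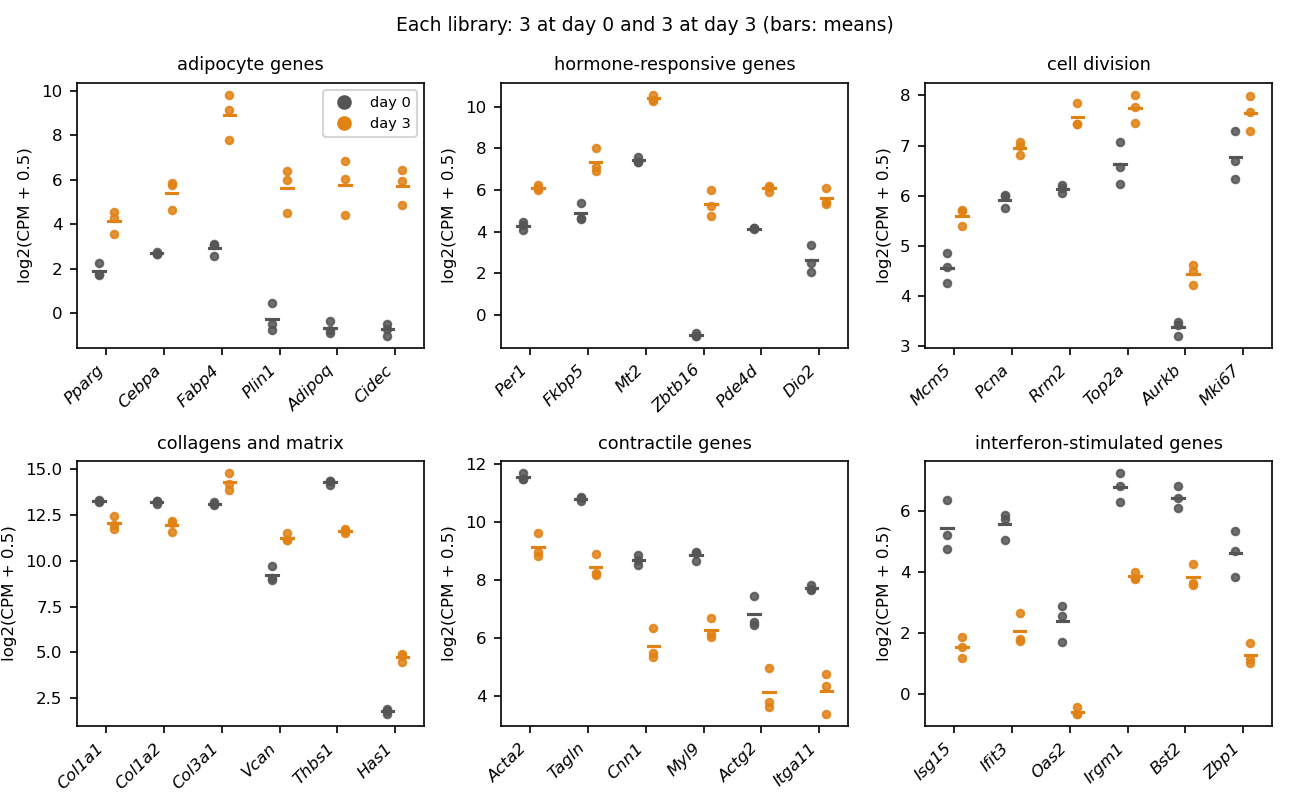
Log2(CPM + 0.5) of 36 genes in each of the 6 libraries, day 0 and day 3 side by side, with bars at the mean of the log2 values of each day. Day 3 libraries lie above day 0 in the panels of adipocyte, hormone-responsive and cell cycle genes (Mki67, whose days overlap, excepted), adipocyte genes are lowest in replicate 1 of day 3, and contractile and interferon-stimulated genes lie below day 0.

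Most genes that release stored fat rose, as did part of those that make it. Of 11 tested lipolysis genes 9 rose (16 were listed), and the median log2 fold change was 2.49 (3.14 without replicate 1 of day 3). Lipe (hormone-sensitive lipase) went from 4.72, 8.05 and 7.26 to 32.2, 91.1 and 72.3 CPM and Pnpla2 (ATGL), the first lipase of the droplet, from 17.96, 17.1 and 15.9 to 61.3, 164 and 134 CPM, both without overlap (log2 fold changes 3.29 ± 0.42 and 2.82 ± 0.35). Abhd5, the activator of ATGL, rose from 51.5, 51.1 and 50.97 to 117, 181 and 195 CPM. Plin2 and Lipa were not called. Of 27 tested genes of fatty acid and triglyceride synthesis, 12 rose and 2 fell (median 0.41). Thrsp, Gpat3, Dgat2 and Agpat2 had log2 fold changes from 2.03 (Agpat2, whose call was lost without a filter on low counts) to 5.37 (Thrsp). Fasn, fatty acid synthase, rose from 247, 269.5 and 291 to 441, 586 and 537 CPM and Acaca, acetyl-CoA carboxylase, from 94.9, 92.8 and 109 to 161, 240.3 and 225 CPM. The desaturase Scd1 rose from 359, 369.7 and 521 to 868, 2072 and 1407 CPM. Acly, Scd2, Elovl5 and Elovl6 did not pass the test, and the desaturase Fads1 and the acyltransferase Mogat2 fell (log2 fold changes -0.77 and -4.56). Few genes of cholesterol synthesis rose. Of 26 tested genes 4 fell (among them Fdps, Sc5d and Fdft1, log2 fold changes -0.99, -0.89 and -0.83) and 1 rose (Tm7sf2), which lost its call without replicate 1 or 2 of day 0 or replicate 1 or 3 of day 3 (0.55 to 0.78 over these refits), while 2 genes rose without replicate 3 of day 0. Of 36 tested genes listed as PPARγ targets, 26 rose and 3 fell (median 1.19). Many of these also stand in the adipocyte and lipid lists.

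Adipokine and insulin signalling genes moved in both directions. Among 20 tested adipokines 11 rose and 3 fell (median 1.22). The acute-phase protein Serpina3n had 99.3, 184 and 484 CPM at day 0 and 4854, 3809.8 and 8933 CPM at day 3, so that even its lowest day 3 library was above its highest day 0 library (log2 fold change 4.52 ± 0.71, edgeR adjusted p = 0.00519). Apln, the peptide apelin, rose from 23.3, 25.5 and 35.9 to 168, 255 and 134 CPM and stood at 71.1 CPM on average at day 6. Ccdc80 and Fgf21 fell (log2 fold changes -1.12 and -2.57). Of 28 tested genes of insulin and IGF signalling 9 rose and 3 fell. Irs2, an adaptor of the insulin receptor, rose from 10.4, 9.88 and 15.1 to 43.4, 64.4 and 72.8 CPM, whereas its relative Irs1 fell from 34.4, 45.9 and 43.6 to 28.7, 23.5 and 25.6 CPM, and Grb14, an inhibitor of the receptor, fell from 43.9, 51.6 and 52.1 to 19.9, 10.9 and 16.8 CPM. Socs2 and Socs3, feedback inhibitors of cytokine receptors, rose by 1.48 and 1.11 on the log2 scale. H19, an imprinted RNA, rose from 12.4, 9.93 and 16.1 to 56.8, 92.3 and 210.3 CPM. Slc2a4 (GLUT4), the insulin-sensitive glucose transporter, went from 0.334, 0.447 and 0.471 to 0.539, 2.55 and 1.75 CPM, and it lost its call without any single library but replicate 1 of day 3 (1.49 to 2.36 on the log2 scale).

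Several thermogenic markers had few counts at day 3, and the brown and beige genes that were tested went both ways. Ucp1 had at most 3 counts in a day 0 library and at most 10 in a day 3 library, too few to be tested, and Cidea, Cox8b, Ear2 and Ppargc1a also failed the filter on low counts. Ppargc1a, the coactivator of mitochondrial genes, had 0.0835, 0.179 and 0.141 CPM at day 0 and 0.224, 0.703 and 1.04 CPM at day 3, and averaged 25.1 CPM at day 6. Of 35 brown and beige genes 24 were tested, 6 rose and 7 fell, with a median of -0.03 that ran from -0.10 without replicate 2 of day 3 to 0.58 without a filter on low counts. Elovl3, a fatty acid elongase of brown fat, went from 0.0835, 0 and 0.0471 to 1.44, 6.37 and 6.09 CPM, low at day 3 but without overlap (log2 fold change 6.55 ± 0.91, edgeR adjusted p = 0.00298). Dio2, which makes T3 from T4 inside the cell, went from 3.72, 5.14 and 9.67 to 68.7, 39.8 and 42.3 CPM. Glycerol kinase Gk rose by 1.13 on the log2 scale. Cited1, Ppargc1b and Adrb3 rose as well, but Cited1 lost its call without replicate 2 of day 0 (4.16 to 6.34 over the refits), Ppargc1b without replicate 1 or 3 of day 0 (2.004 to 2.81) and Adrb3 without any library but replicate 1 of day 3 (1.84 to 2.63). Prdm16, a determinant of beige identity, had 6.68, 6.75 and 5.799 CPM at day 0 and 7.94, 8.88 and 7.27 CPM at day 3 and was not called (log2 fold change 0.33 ± 0.14, edgeR adjusted p = 0.104). Ebf2, Ppara and Cox7a1 were not called, with log2 fold changes of -0.05, 0.57 and 0.10. Among the 7 that fell were Hspb7, a small heat shock protein (118, 172 and 126 to 16.02, 11.8 and 17.8 CPM), Acot2 and Fgf21, and 4 genes of the list fell without replicate 2 of day 0.

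Most genes known to answer to glucocorticoids rose. Of 33 tested (36 listed) 22 rose and 2 fell, with a median log2 fold change of 1.25, and 19 to 25 rose when single libraries were left out. Mt2, a metallothionein that binds zinc (chromosome 8, 94172664 to 94173568, plus strand, mm10), had 195, 164 and 161 CPM at day 0 and 1297, 1518 and 1259 CPM at day 3. Its neighbour Mt1 had 165, 130.0 and 111 CPM at day 0 and 872, 959 and 734 CPM at day 3. In both metallothioneins the day 3 libraries were tight and separate from day 0 (log2 fold changes 2.98 ± 0.13 and 2.66 ± 0.18, edgeR adjusted p = 8.22e-05 and 0.000246). Per1, a clock gene with a direct glucocorticoid response, rose from 16.4, 21.4 and 19.3 to 63.96, 74.1 and 68.1 CPM (log2 fold change 1.86 ± 0.11, edgeR adjusted p = 0.000196). Fkbp5, the chaperone that restrains the glucocorticoid receptor, rose from 25.1, 24.02 and 41.6 to 121, 139 and 257 CPM, highest in replicate 3. Glul, glutamine synthetase, rose from 38.2, 39.8 and 49.4 to 260.5, 217 and 247 CPM. Errfi1, an inhibitor of the EGF receptor, Bcl6 and Sgk1 rose by 1.51, 1.25 and 0.97 on the log2 scale. Tsc22d3 (GILZ), a widely used marker of the response, rose from 23.3, 22.5 and 23.7 to 57.99, 36.5 and 93.1 CPM but lost its call without any 1 of the day 0 replicates (1.04 to 1.72 on the log2 scale). The receptor itself, Nr3c1, had 83.1, 78.2 and 105 CPM and then 58.5, 60.1 and 75.1 CPM and was not called (edgeR adjusted p = 0.0526). Dusp1, Mertk and Pik3r1 were not called, Mfsd2a fell from 6.98, 6.31 and 8.02 to 1.93, 1.67 and 1.78 CPM, and Tgm2 also fell but lost its call without replicate 2 or 3 of day 0 or replicate 1 or 2 of day 3 (-1.88 to -1.179), so that 1 member was then lower.

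The near-promoter of Mt1 is shown because it is the called member with the largest change that holds a palindromic glucocorticoid response element (GNACANNNTGTNC, capitals) within 250 bases before its start (chr8:94178839-94179088, plus strand, GRCm38.p6, RefSeq). Promoters here run from 250 bases before to 50 bases after a gene's start, on the gene's strand, and 27 of the 33 tested members matched the RefSeq table by symbol.
Mt1: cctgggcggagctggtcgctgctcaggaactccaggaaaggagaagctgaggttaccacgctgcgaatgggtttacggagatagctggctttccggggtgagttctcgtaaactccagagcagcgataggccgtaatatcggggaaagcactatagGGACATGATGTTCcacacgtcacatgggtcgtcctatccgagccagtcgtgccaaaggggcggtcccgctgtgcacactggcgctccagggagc
This motif, searched on both strands and chosen after the data were seen, was in 3 of the 27 promoters (11.1%; Mt1, Sgk1 and Map3k6) and in 0.537% of all 27025 promoters of the table (0.398% of those of tested genes). A match of letters is a description and not a bound site.

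Several phosphodiesterases that degrade cAMP rose, joined by some but not all of the immediate early genes of the cAMP response. Of 28 tested targets of cAMP and CREB 13 rose and 4 fell (median 0.66). Pde4a, Cited2, Ptgs2 and Bdnf fell, and this number was 1 without replicate 1 of day 0, 0 without replicate 2 of day 0, 1 without replicate 2 of day 3 and 2 without replicate 3 of day 3. Pde4d, long known to be induced by cAMP itself, rose from 17.4, 17.5 and 16.9 to 60.4, 72.7 and 70.1 CPM (log2 fold change 1.98 ± 0.088, edgeR adjusted p = 8.22e-05). Pde3b, the insulin-regulated phosphodiesterase of fat cells, rose from 4.09, 5.501 and 3.39 to 38.3, 64.5 and 69.7 CPM (log2 fold change 3.74 ± 0.29). Pde4b, Pde7b and the repressor Crem rose by 1.21, 1.42 and 1.297 on the log2 scale. Rgs2, which shortens G protein signals, rose from 2.84, 2.55 and 5.85 to 31.7, 44.3 and 72.3 CPM, and Sik1, a kinase induced by cAMP, from 12.8, 22.2 and 14.1 to 59.3, 47.2 and 30.3 CPM. Fos and Nr4a1 rose by less than 1 on the log2 scale and lost their calls in the fit of 24 libraries, whereas Egr1, Nr4a2, Nr4a3, Fosb and Atf3 were not called. Among 41 tested parts of the cAMP machinery 10 rose and 8 fell, and the cyclases went both ways. Adcy5 and Adcy2 rose (1.49 and 1.23 on the log2 scale) and Adcy7 and Adcy1 fell, Adcy7 from 55.4, 61.04 and 46.2 to 6.42, 11.998 and 5.49 CPM. Prkar1b, a regulatory subunit of protein kinase A, fell from 38.8, 33.9 and 47.2 to 9.92, 12.7 and 9.86 CPM. Of 13 tested thyroid hormone targets 5 rose (Thrsp, Dio2, Klf9, Acaca and Fasn) and Gpd2 and Hr fell. All 5 that rose stand in other lists as well. These counts do not separate members that the hormone induces from members that it represses.

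Dio2 is shown as 1 of the 2 cAMP targets, of 21 matched promoters, that held the cAMP response element (TGACGTCA, capitals). The upstream stretch lies at chr12:90739039-90739288 (minus strand, GRCm38.p6, RefSeq).
Dio2: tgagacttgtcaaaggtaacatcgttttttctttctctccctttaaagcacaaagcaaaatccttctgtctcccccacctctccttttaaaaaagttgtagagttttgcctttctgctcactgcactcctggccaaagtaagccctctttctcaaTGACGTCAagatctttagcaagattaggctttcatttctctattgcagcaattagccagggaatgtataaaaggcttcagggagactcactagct
The other was Dusp1, which was not called, and the element was in 2.03% of all promoters and in 3.6% of those of tested genes. With 75% of the 28 tested members matched, below 80%, no share is compared for this list.

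Many genes of DNA replication and of mitosis rose by day 3, though the number in mitosis depended on single libraries. Of 43 replication genes, all tested, 28 rose and the other 15 were not called (median 0.74), and 22 to 31 rose when single libraries were left out. Rrm2, a subunit of ribonucleotide reductase (chromosome 12, 24708241 to 24714146, plus strand, mm10), had 73.9, 66.1 and 70.9 CPM at day 0 and 229.8, 171 and 172 CPM at day 3. Pcna, the sliding clamp of DNA polymerase, had 63.5, 53.6 and 64.2 CPM at day 0 and 111, 127 and 134 CPM at day 3. Mcm5, a subunit of the replicative helicase, had 23.3, 18.6 and 28.4 CPM and then 41.7, 52.03 and 51.6 CPM. In all 3 genes the groups were separate, at log2 fold changes of 1.45 ± 0.14, 1.05 ± 0.11 and 1.05 ± 0.17 (edgeR adjusted p = 0.000691, 0.000968 and 0.00467). Cdc6, which loads that helicase, rose from 5.68, 3.76 and 6.74 to 10.4, 16.3 and 13.2 CPM. Of 44 mitosis genes, all tested, 30 rose and 14 were not called (median 0.81), and this count depended on the libraries. It was 11 without replicate 1 of day 0, 15 without replicate 2 of day 0, 15 without replicate 2 of day 3, 14 without replicate 3 of day 3, and 39 at most. Aurkb, the kinase of the chromosomal passenger complex, rose from 10.3, 8.77 and 10.7 to 18.1, 22.1 and 24.2 CPM (log2 fold change 1.12 ± 0.14, edgeR adjusted p = 0.00199), and Cdk1 from 39.1, 29.4 and 40.97 to 56.1, 69.8 and 77.2 CPM. Top2a, topoisomerase II, had 94.98, 74.7 and 133 CPM and then 174, 217 and 257 CPM, lowest in replicate 2 of day 0 and highest in replicate 3 of day 3 (log2 fold change 1.100 ± 0.24), and its call was lost without replicate 1 of day 0 (0.92 to 1.36 over such refits) and without a filter on low counts. Mki67, the antigen of cycling cells, had 103, 80.1 and 157 CPM and then 156, 203 and 252 CPM, which overlap, and was not called (log2 fold change 0.85 ± 0.29, edgeR adjusted p = 0.0618). It was called without replicate 3 of day 0, in DESeq2 and in limma-voom (0.65 to 1.175 on the log2 scale over refits without 1 library). The D-type cyclins Ccnd1 and Ccnd2 fell from 290.5, 312 and 288 to 165, 159 and 93.4 CPM and from 882, 1059.9 and 912 to 553, 479.9 and 452 CPM. Cdkn1a (p21), a brake on the cell cycle, fell from 398, 475 and 344 to 235, 229 and 173 CPM. Of the 20 listed genes of G1 control 4 fell, namely Ccnd1, Ccnd2, Cdkn1a and the kinase gene Cdk6. Cdk6 went from 40.6, 47.4 and 45.3 to 18.1, 17.9 and 23.6 CPM (log2 fold change -1.15 ± 0.13, edgeR adjusted p = 0.00129). The 3 that rose were Cdkn2c, Rbl1 and Cdkn2d, and none of the 3 kept its call without replicate 1 or without replicate 2 of day 0. In this list 1 gene rose without replicate 3 of day 3.

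Promoters of both cell cycle lists are shown by 1 gene each, with their motifs in capitals. Cdc6 (chr11:98907901-98908150, plus strand, GRCm38.p6, RefSeq) holds an E2F site (TTTCCCGC or TTTGGCGC, both strands), and Top2a (chr11:99024190-99024439, minus strand) holds the cell cycle homology region (TTTGAA, both strands) at more than 1 place.
Cdc6: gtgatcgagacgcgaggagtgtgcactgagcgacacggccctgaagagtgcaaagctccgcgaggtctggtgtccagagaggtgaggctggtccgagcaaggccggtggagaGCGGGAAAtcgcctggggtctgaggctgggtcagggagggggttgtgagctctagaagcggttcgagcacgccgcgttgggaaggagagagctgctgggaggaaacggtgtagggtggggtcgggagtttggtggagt
Top2a: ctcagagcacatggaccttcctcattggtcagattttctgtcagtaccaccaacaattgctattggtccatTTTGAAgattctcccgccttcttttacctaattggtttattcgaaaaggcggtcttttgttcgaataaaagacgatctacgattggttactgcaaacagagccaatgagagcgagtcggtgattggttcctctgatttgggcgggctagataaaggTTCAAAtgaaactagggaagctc
E2F sites were in 11 of 36 matched replication promoters (30.6%), in 1.8% of all promoters and in 3.39% of those of tested genes, of which 69.7% matched the table. The cell cycle homology region was in 25 of 37 matched mitosis promoters (67.6%), in 20.2% of all and in 14.3% of those of tested genes. The CCAAT box (CCAAT, both strands) was in 22 of the 36 (61.1%) and 25 of the 37 (67.6%), in 41.1% of all promoters and in 43.1% of those of tested genes. Members were matched whether or not they rose, so these shares describe the lists and not their change.

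Genes of the fibrillar matrix moved in both directions. Of 31 tested collagens (43 listed) 5 rose and 14 fell, with a median of -0.48. Col1a1, a chain of type I collagen (chromosome 11, 94936224 to 94953042, plus strand, mm10), had 10282, 9793 and 9452 CPM at day 0 and 3410.5, 5567 and 3987 CPM at day 3. Col1a2, the other chain of the same fibril (chromosome 6, 4504814 to 4541544, plus strand), had 9684, 8841 and 9816 CPM at day 0 and 3038, 4619 and 4177 CPM at day 3. Both chains fell without overlap (log2 fold changes -1.184 ± 0.19 and -1.26 ± 0.18, edgeR adjusted p = 0.00456 and 0.0028). Col3a1, the type III chain, went the other way from 9558, 8795 and 8325 to 14857, 27971 and 18762 CPM (log2 fold change 1.21 ± 0.24, edgeR adjusted p = 0.00867). Col6a1, Col6a2, Col23a1 and Col27a1 were the others that rose. Col5a2, Col8a1, Col4a5 and Col16a1 fell, from -1.19 (Col16a1) to -3.097 (Col8a1) on the log2 scale, while Col4a1, Col4a2, Col5a1 and Col5a3 were not called. Thbs1, thrombospondin 1, had 18155, 20669 and 20818 CPM at day 0 and 3375, 2867 and 3108 CPM at day 3; every day 3 library was far below day 0 (log2 fold change -2.67 ± 0.15, edgeR adjusted p = 0.00014). Vcan, the proteoglycan versican, rose from 844, 529 and 489 to 2228, 2953 and 2239 CPM, and Has1, which makes hyaluronan, from 3.05, 3.31 and 2.64 to 29.2, 27.6 and 21.8 CPM. Lama4, a laminin chain of basement membranes, rose from 354, 340.3 and 313 to 644, 679.7 and 539 CPM. Fbln5 and Tnc, tenascin C, fell (log2 fold changes -2.195 and -1.29), while fibronectin (Fn1), Sparc and Fbn1 were not called. In this list of non-collagen matrix genes 8 of 44 tested members rose, or 4 without replicate 2 of day 3, and 9 fell.

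More matrix proteases and inhibitors fell than rose. Of 31 tested members 13 fell and 5 rose (median -0.42). Mmp14, the membrane-bound collagenase activator, fell from 799, 819 and 778 to 385, 407 and 323 CPM (log2 fold change -1.098 ± 0.11, edgeR adjusted p = 0.000844). Mmp13, a collagenase, fell from 47.4, 16.7 and 18.3 to 1.66, 2.197 and 0.841 CPM. The inhibitor Timp3 fell from 2885, 4905 and 2667 to 956, 536 and 222 CPM, without overlap but with a call that was lost without replicate 2 of day 3 (-3.196 to -2.21 on the log2 scale over such refits), whereas Timp1 rose from 561, 651 and 511 to 1329.5, 1376 and 872 CPM. Adamts15, a proteoglycan-cleaving enzyme, rose from 14.8, 19.01 and 34.9 to 204, 231 and 318 CPM and Adamts9 by 1.65 on the log2 scale. Mmp2 and Mmp3 were not called. Mmp2 had 621, 502 and 677 CPM and then 699.5, 978 and 974 CPM (log2 fold change 0.56 ± 0.17, edgeR adjusted p = 0.0421), a change under 1.5-fold that was called without replicate 1 of day 3 and with scaling by library size (0.44 to 0.71 over refits without 1 library).

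Genes of the contractile apparatus fell almost without exception. Of 28 genes of actin fibres and of the SRF programme, all tested, 25 fell and Mrtfa, Synpo2 and Myocd were not called, with a median of -1.71. When single libraries were left out 22 to 25 fell. Acta2, smooth muscle actin (chromosome 19, 34241090 to 34255590, minus strand, mm10), had 2829, 3276 and 2817 CPM at day 0 and 774, 493 and 448 CPM at day 3. Tagln (SM22), an actin cross-linker, had 1667, 1841 and 1799.7 CPM at day 0 and 470.0, 301 and 286 CPM at day 3. Cnn1, calponin, had 363, 462 and 414 CPM and then 80.1, 43.3 and 39.4 CPM. Replicate 1 kept the highest level of all 3 genes at day 3, and no day 3 library reached day 0 (log2 fold changes -2.37 ± 0.23, -2.32 ± 0.21 and -2.92 ± 0.30, edgeR adjusted p = 0.000755, 0.000629 and 0.00126). Myl9, a myosin light chain, and Tpm1, a tropomyosin, fell from 398, 488 and 491 to 102, 63.8 and 68.5 CPM and from 1292, 1288 and 1372 to 372, 270.4 and 258 CPM. Itga11, a collagen receptor, fell from 222, 200.4 and 205 to 19.5, 26.5 and 9.83 CPM. Srf itself had 34.3, 37.9 and 35.97 CPM and then 25.7, 23.2 and 20.9 CPM (log2 fold change -0.62 ± 0.10), a call lost without replicate 3 of day 3 (-0.70 to -0.55 over such refits). Acta1, the skeletal muscle actin, fell from 108, 90.6 and 109 to 8.71, 7.21 and 4.24 CPM. The 8 mural cell markers summed to 235 to 335 CPM at day 0 and 131 to 173 CPM at day 3. Of the 7 tested, Myh11, Mcam and Cspg4 fell and 1 rose, Kcnj8. It had 1.59, 0.402 and 1.46 CPM at day 0 and 5.16, 2.72 and 33.3 at day 3 (edgeR adjusted p = 0.0468). The number that rose was 0 to 2 when single libraries were left out, and 2 without replicate 2 of day 3. Whether fewer mural cells contributed was not tested.

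Myl9 (chr2:156775214-156775463, plus strand) and Cnn2 (chr10:79988350-79988599, plus strand; GRCm38.p6, RefSeq) are shown as the 2 members with the largest falls whose upstream 250 bases hold a CArG box, the SRF binding site, in capitals.
Myl9: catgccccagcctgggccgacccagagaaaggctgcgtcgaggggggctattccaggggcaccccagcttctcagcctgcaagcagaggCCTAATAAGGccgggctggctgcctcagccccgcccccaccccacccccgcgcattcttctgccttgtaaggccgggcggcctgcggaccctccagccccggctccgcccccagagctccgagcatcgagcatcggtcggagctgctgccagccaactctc
Cnn2: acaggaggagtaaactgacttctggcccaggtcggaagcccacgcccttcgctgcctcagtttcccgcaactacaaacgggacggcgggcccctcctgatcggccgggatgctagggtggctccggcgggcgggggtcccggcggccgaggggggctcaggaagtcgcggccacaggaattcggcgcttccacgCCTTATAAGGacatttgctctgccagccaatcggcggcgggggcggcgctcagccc
The box, chosen after the data were seen, was in 4 of 23 matched promoters (17.4%), in 1.81% of all promoters and in 1.58% of those of tested genes. Cnn2 fell from 526, 567 and 564 to 192, 140.2 and 125 CPM.

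Progenitor and signalling genes moved in both directions. Of 30 tested adipose progenitor markers 6 rose and 6 fell (median -0.06, from -0.29 without replicate 1 of day 3 to 0.39 without replicate 2 of day 0). Pi16, a marker of multipotent progenitors, rose from 1.63, 3.31 and 2.64 to 19.1, 15.3 and 27.7 CPM and Cd55 from 99.6, 109 and 98.6 to 171, 192 and 174 CPM, while Thy1 fell from 915, 956 and 943 to 506, 525 and 492 CPM, Itgb1 from 2011, 1820.0 and 1885 to 1101, 1009 and 1082 CPM and F3, tissue factor, from 945, 925 and 799 to 238, 166 and 79.2 CPM. Pdgfra, Pdgfrb, Cd34, Dpp4 and Icam1 were not called. The listed receptors of TGF-β rose. Tgfbr1, Tgfbr2 and Tgfbr3 had log2 fold changes of 1.66 ± 0.17, 1.47 ± 0.16 and 1.62 ± 0.19, Tgfbr2 going from 213, 242 and 262 to 597, 575 and 799 CPM. The ligand Tgfb3 and the BMP ligand Gdf6 fell (log2 fold changes -1.701 and -2.55), and Grem1, a BMP antagonist, fell from 566, 843 and 437 to 194, 80.1 and 49.7 CPM but lost its call without replicate 2 of day 3 (-3.24 to -2.15 on the log2 scale over such refits). In all, 6 of 38 tested TGF-β and BMP genes rose and 6 fell. Of 31 tested Wnt genes 4 rose and 8 fell, or 5 fell without replicate 2 of day 3. The Wnt receptor Fzd1 rose from 51.5, 82.5 and 69.9 to 271, 209.7 and 218 CPM. Ccn4 (WISP1), a target of Wnt signalling, fell from 354, 281 and 239 to 51.8, 52.3 and 59.7 CPM, and Nkd2, an inhibitor of the pathway, from 60.02, 81.97 and 62.8 to 22.4, 26.2 and 12.9 CPM.

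Most interferon-stimulated genes, which day 0 cells expressed at modest levels, fell. Of 40 tested (41 listed) 32 fell and the other 8 were not called, with a median of -2.13, and 29 to 35 fell when single libraries were left out. Isg15, a ubiquitin-like protein (chromosome 4, 156199424 to 156200818, minus strand, mm10), had 26.4, 81.3 and 36.3 CPM at day 0 and 1.75, 2.37 and 3.13 CPM at day 3. Ifit3, an RNA-binding antiviral protein, had 32.8, 58.7 and 52.7 CPM at day 0 and 2.96, 2.81 and 5.79 CPM at day 3. Irgm1, an immunity GTPase, had 77.8, 151 and 114 CPM at day 0 and 15.5, 13.01 and 13.5 CPM at day 3. Replicate 1 was the lowest and replicate 2 the highest of the day 0 libraries in each, and every day 3 library lay below them (log2 fold changes -4.28 ± 0.50, -3.61 ± 0.36 and -3.02 ± 0.25, edgeR adjusted p = 0.00204, 0.00126 and 0.000629). The tether Bst2 fell from 67.6, 113 and 85.01 to 11.5, 12.04 and 18.8 CPM, and the nucleic acid sensor Zbp1 from 13.9, 40.5 and 25.1 to 1.53, 2.64 and 1.68 CPM. Of the transcription factors of the response, Irf7, Irf9 and Stat2 fell (log2 fold changes -2.905, -1.59 and -1.31). Irf1, Tap1 and Psmb9 were not called, with log2 fold changes of -0.05, -0.07 and -0.17. Macrophage markers summed to 147 to 516 CPM at day 0 and 72.9 to 271 at day 3, and Lyz2 was highest in replicate 1 of day 0, where Isg15, Ifit3 and Irgm1 were lowest. What part these cells had in the fall was not tested.

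The promoters of Isg15 (chr4:156200819-156201068, minus strand) and Ifit3 (chr19:34583279-34583528, plus strand; GRCm38.p6, RefSeq) are shown because both hold the core of the interferon-stimulated response element (TTTCNNTTTC, both strands, capitals) more than once.
Isg15: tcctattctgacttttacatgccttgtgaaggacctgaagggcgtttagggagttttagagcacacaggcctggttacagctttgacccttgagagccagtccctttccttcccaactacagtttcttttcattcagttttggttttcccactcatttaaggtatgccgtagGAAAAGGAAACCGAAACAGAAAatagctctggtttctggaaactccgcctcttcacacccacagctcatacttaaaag
Ifit3: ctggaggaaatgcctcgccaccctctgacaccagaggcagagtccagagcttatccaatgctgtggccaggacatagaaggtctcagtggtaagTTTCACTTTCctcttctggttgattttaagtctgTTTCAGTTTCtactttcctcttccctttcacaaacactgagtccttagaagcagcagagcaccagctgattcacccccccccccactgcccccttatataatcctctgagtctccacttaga
This core, also chosen after the data were seen, was in 16 of 29 matched promoters and in 3.99% of all promoters (3.78% of those of tested genes). Only 72.5% of the 40 tested members matched the table, below 80%, so the share is not compared.

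Inflammatory genes outside the interferon list went both ways, with 9 of 38 tested rising and 8 falling, or 5 falling without replicate 1 of day 0 and 5 without replicate 2 of day 3. The cytokine Il33 rose from 10.2, 13.9 and 18.01 to 69.5, 110.1 and 85.8 CPM (log2 fold change 2.66 ± 0.25), the chemokine Cxcl1 from 7.35, 3.35 and 5.09 to 15.9, 21.9 and 18.7 CPM and Nfkbia, the inhibitor of NF-κB, from 12.3, 14.4 and 11.98 to 27.7, 24.96 and 25.5 CPM. Cxcl12 and Cxcl16 fell (log2 fold changes -0.87 and -1.61), as did Tlr2, a sensor of bacterial lipoproteins, from 5.39, 5.59 and 5.23 to 1.97, 1.89 and 1.82 CPM. Il6, Csf1, Vcam1 and Icam1 were not called.

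Few genes of energy metabolism were called at day 3, apart from those of the mitochondrial genome and of fatty acid oxidation. Of 76 nuclear genes of oxidative phosphorylation, all tested, 1 rose (Ndufa6, log2 fold change 0.71 ± 0.11), and the median was 0.07. Of the 13 protein genes of the mitochondrial genome 8 rose (median 0.61), or 5 without replicate 2 of day 0 or without replicate 3 of day 3. Among them mt-Cytb, cytochrome b, had 2109.8, 1966 and 2048 CPM and then 3602, 3394 and 4333 CPM, and mt-Co1 was not called at 0.54 ± 0.14. Of 26 genes of fatty acid oxidation 9 rose and 2 fell, and 4 rose without replicate 2 of day 3. Acsl1 had the largest fold change, and Cpt2 rose by 0.68 on the log2 scale. In the citric acid cycle 1 of 22 tested genes rose, Pcx, pyruvate carboxylase (log2 fold change 2.48 ± 0.19), or 4 without replicate 1 of day 3. Of 32 genes listed for the integrated stress response and the unfolded protein response, all tested, 10 fell and 1 rose (Dnajb9, a call lost without replicate 3 of day 0, while 2 genes rose without replicate 3 of day 3). Trib3 fell from 59.5, 47.4 and 39.5 to 10.5, 10.4 and 5.08 CPM and Phgdh, which starts serine synthesis, from 145, 139.6 and 148 to 54.8, 52.4 and 55.4 CPM (edgeR adjusted p = 0.000124), while Atf4 and Hspa5 were not called. Of 18 tested clock genes Per1, Nfil3 and Cry1 rose and 5 fell, and Cry1 lost its call without replicate 2 of day 0 or replicate 3 of day 3. Dbp, an output of the clock, fell from 14.03, 13.4 and 14.05 to 4.98, 4.39 and 4.31 CPM, and Arntl and Clock, the core activators, were not called, with log2 fold changes of 0.09 and -0.06.

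Of the pair of nucleosome-binding proteins HMGN1 and HMGN2, the gene of the latter rose in WT cells. Hmgn2 (chromosome 4, 133964738 to 133968650, minus strand, mm10) rose from 45.1, 33.3 and 51.6 to 88.7, 118 and 138 CPM (log2 fold change 1.41 ± 0.22, edgeR adjusted p = 0.0044) and its relative Hmgn5 from 12.9, 9.704 and 9.95 to 27.8, 25.01 and 43.1 CPM (log2 fold change 1.56 ± 0.24). Hmgn1 had 159, 134 and 166 CPM and then 151, 156 and 174 CPM, which overlap, and was not called (log2 fold change 0.08 ± 0.11, edgeR adjusted p = 0.625). Hmgb2, a high mobility group protein of dividing cells, rose from 32.5, 19.2 and 41.2 to 57.3, 72.2 and 97.3 CPM, a call lost without replicate 1 of day 0 or replicate 2 or 3 of day 3 (1.04 to 1.57 on the log2 scale over such refits). Hmgn2 has many processed pseudogenes, between which RSEM divides shared reads.

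Set beside the later days of the same cells, day 3 was an early point for some genes and the highest for others. These levels are means of 3 libraries and are given without a test. Fabp4 stood at 11229 CPM at day 6 and 14069 CPM at day 9, and Adipoq at 1167 and 1350.2 CPM, so day 3 was a small part of the later level of both. Ucp1 reached 9.92 CPM at day 6 and 6.06 CPM at day 9, Elovl3 171 and 269 CPM. Dio2 was highest at day 3, with a mean of 50.3 CPM against 10.1 CPM at day 6 and 1.49 CPM at day 9. Grik2, a subunit of kainate receptors, was also highest at day 3 (1.47, 21.5, 1.17 and 1.11 CPM over the 4 days), as did Has1, Vcan, Rrm2 and Col3a1. Rrm2 stood at 30.98 CPM at day 6 and Col3a1 at 8366 CPM. Acta2 stood at 50.1 CPM at day 6, whereas Isg15 was at 2.42 CPM at day 3, 4.99 CPM at day 6 and 8.79 CPM at day 9. Between days 3 and 6 the differentiation medium had been replaced by a maintenance medium of insulin and T3. Lyz2 averaged 6326 CPM at day 6 and 3305 CPM at day 9, far above its level at days 0 and 3. Every listed macrophage marker had a higher mean at day 6 than at day 3. Mrc1 went from 14.4 to 2216 CPM and Cd14 from 7.65 to 17.6 CPM. CPM are relative to a whole library, and what this macrophage RNA did to the other levels was not tested.

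Few genes could be shown to take this step differently in cells without HMGN1 and HMGN2. The 6 libraries of double knockout (DKO) preadipocytes of days 0 and 3 carry inactivated Hmgn1 and Hmgn2. Hmgn2 averaged 45.3 ± 10.04 and 121 ± 26.3 CPM (mean ± SD, n = 3) in WT cells at days 0 and 3 and 0.0387 and 0.118 CPM in DKO cells, whereas Hmgn1 had 99.5 ± 7.12 and 98.9 ± 8.22 CPM in DKO cells against 159.6 ± 18.9 and 169.6 ± 13.7 CPM in WT cells. Counts per gene do not show which exons those Hmgn1 reads come from. Here and in the test with MEFs, CPM were scaled over the 12 libraries of each test, so WT levels differ slightly from those above. By a test of the interaction between genotype and day, 2 of 15999 genes (0.0125%) responded differently (edgeR), 996 had an unadjusted p below 0.05, and DESeq2 called 66. Nabp1, a single-stranded DNA-binding protein, had the larger log2 fold change in DKO cells, from 44.7 ± 1.47 to 310.4 ± 26.3 CPM against 62.9 ± 7.38 to 147 ± 22.3 CPM in WT cells (difference of log2 fold changes 1.57 ± 0.17, SE, edgeR adjusted p = 0.0272). Psmd8, a proteasome subunit, went from 212 ± 12.4 to 114 ± 0.961 CPM in WT cells and from 113 ± 0.188 to 98.9 ± 3.23 CPM in DKO cells (difference 0.70 ± 0.081, edgeR adjusted p = 0.0272). Both calls depended on single libraries. Nabp1 was lost without replicate 1 or 2 of WT day 0, replicate 3 of WT day 3 or any DKO library, and Psmd8 without any of the 12 libraries. In all, Nabp1 was called in 6 and Psmd8 in 3 of 16 alternatives, and neither was called with replicate number within genotype as a block. Gene by gene, the median difference of log2 fold changes (DKO minus WT) was 0.83 for adipocyte markers, 0.83 for lipolysis, 0.65 for PPARγ targets, 0.65 for fatty acid and triglyceride synthesis and 0.51 for fatty acid oxidation. It was 0.44 for the citric acid cycle, 0.36 for nuclear genes of oxidative phosphorylation, 0.25 for interferon-stimulated genes, -0.27 for matrix proteases and -0.50 for contractile genes, beside -0.04 over all genes tested. No member of these lists was called, and the medians, over genes that passed the filter in the 12 libraries, were not tested. A count this low does not show that the genotypes respond alike.

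In mouse embryonic fibroblasts (MEFs) of the same genotype, given the same agents, 2132 of 16703 genes (12.8%) responded differently between days 0 and 4 than preadipocytes did between days 0 and 3. Of these 1161 had the higher log2 fold change in MEFs and 971 the lower, and cell type, origin from embryos and the day of harvest cannot be told apart in this test. Gene by gene, the median difference of log2 fold changes (MEFs minus preadipocytes) was 0.29 for 29 adipocyte markers, beside 0.02 over all genes tested. Of these markers 2 were called higher in MEFs and 1 lower. The median difference was 0.32 for 28 contractile genes (5 higher, 1 lower) and 0.62 for 41 interferon-stimulated genes (4 higher, 1 lower). For 44 mitosis genes it was -0.47 (6 lower). The share to hold beside these counts is the 12.8% of all genes called in either direction. Of 45 non-collagen matrix genes tested, 17 had a lower log2 fold change in MEFs by this test, and the median difference was -0.79. Il33 went from 32.3 ± 4.49 to 2.21 ± 0.623 CPM in MEFs (difference -6.51 ± 0.37, edgeR adjusted p = 1.04e-05).

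**Figure D4:**
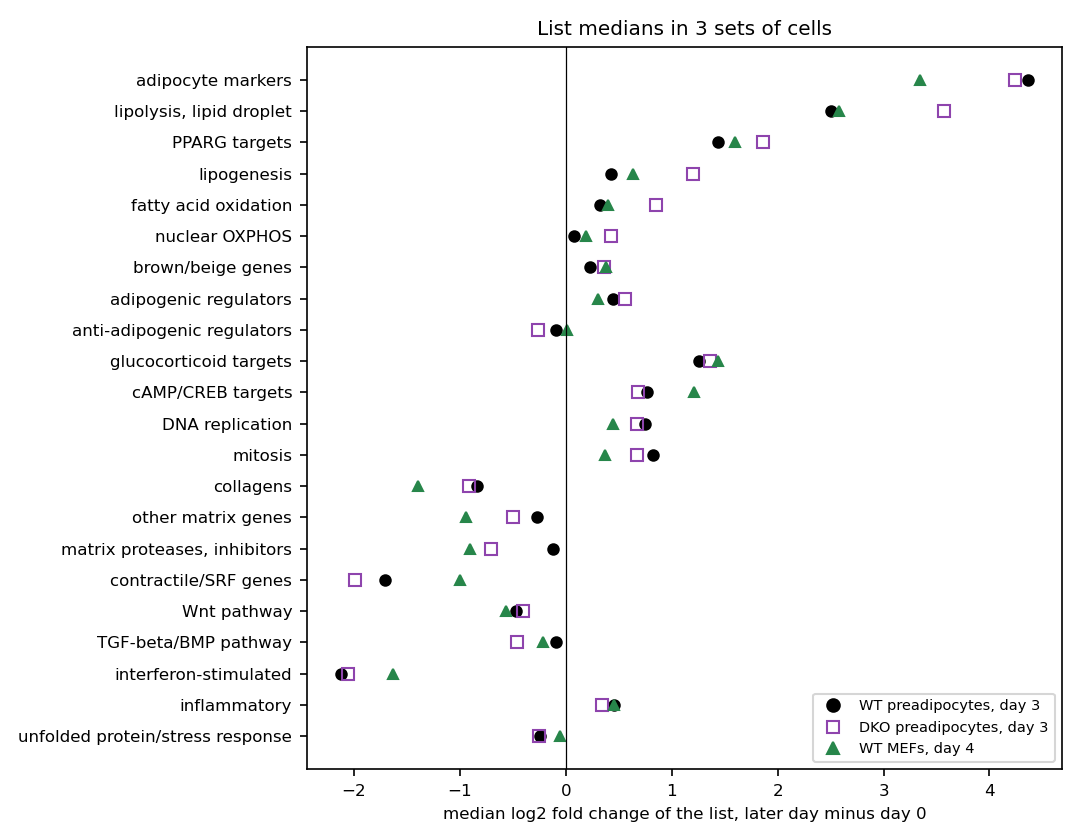
Median log2 fold change of 22 gene lists (rows), later day over day 0 (horizontal axis), in WT preadipocytes, DKO preadipocytes (both from the fit with DKO libraries) and MEFs (from the fit with MEF libraries, which tests a different set of genes). A distance between points is a distance between list medians and not the median difference gene by gene: for adipocyte markers the points of WT (4.36) and DKO cells (4.24) lie close together, whereas the median difference was 0.83. DKO points stand to the right of WT points for lipolysis (2.501 and 3.57), and MEF points stand lower for collagens and other matrix genes.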

How the data were processed

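RNA-seq was analysed in 6 libraries of WT preadipocytes, 3 of day 0 and 3 of day 3, grouped by their labels, and for 2 interaction tests also in 6 DKO preadipocyte and 6 WT MEF libraries. The authors deposited expected counts per gene, estimated by RSEM 1.3.0 after bcl2fastq 2.17, cutadapt 1.18 and STAR 2.7.0f on mm10 (submitters' processing notes), without normalization. RSEM divides reads shared by similar genes, and 6.74% to 7.6% of the values were not whole, so they were rounded. The labels name polyA RNA and the study's methods a total RNA kit, and which was used is not settled here. All 55450 identifiers matched GENCODE M21, which gave coordinates.

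Genes passing filterByExpr were tested with edgeR 4.0.16 (TMM scaling, robust quasi-likelihood test, R 4.3.3). A gene was called at an adjusted p below 0.05 with a fold of 1.5 or more. The text names, in each direction, the 10 called genes with the smallest p whose days do not overlap, the 10 protein-coding genes with the largest fold and at least 1 CPM in each library of the higher day, up to 4 leading genes a direction from each list with its defining members, genes that the study names, and 5 genes a direction from each interaction. Members, lists and tests were chosen with earlier results of these data known, and further genes and the glucocorticoid, CArG and interferon motifs were added after values were seen. Alternatives were DESeq2 1.42.0, limma-voom 3.58.1 with quantile normalization, other scaling, filters and thresholds, a fit of 24 libraries, a block for the replicate number, and refits that each omit 1 library. The steps were tested on simulated data. Totals of 19872366 to 27594598 counts a library set the precision of low genes, with a floor of 3 counts per library. Plots use a pseudocount of 0.5 CPM, and figures were drawn with matplotlib 3.10.9. Promoters came from a RefSeq table (GRCm38.p6) matched by symbol. The other libraries of the series were not used here beyond the levels of days 6 and 9. Values of a few genes that these rules name are not reported here.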

Additional observations from a re-analysis of the deposited data

Results flagged for a closer look

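2 genes stood out because their day 3 response differed between DKO and WT preadipocytes by a test of the difference itself, the interaction of genotype and day in edgeR. The difference of log2 fold changes, DKO minus WT, was 1.573 for Nabp1 (edgeR adjusted p = 0.0272) and 0.7048 for Psmd8 (edgeR adjusted p = 0.0272), with the same sign under all 16 alternatives. Their adjusted p-values ranged up to 0.167 and 0.187 over 16 alternatives.

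The 9 genes given here are among the 5 calls in each direction with the smallest p-values in the interaction of cell type and step between WT MEFs (day 4 against day 0) and WT preadipocytes (day 3 against day 0), and each was called under all 16 alternatives. Lrp8, a receptor of the lipoprotein receptor family, went from 24.6 ± 2.57 to 10.6 ± 0.233 CPM in preadipocytes and from 6.47 ± 0.400 to 25.2 ± 3.13 CPM in MEFs, a difference of log2 fold changes of 3.168. Srxn1, sulfiredoxin, which repairs oxidised peroxiredoxins, went from 131 ± 14.7 to 144 ± 19.3 CPM in preadipocytes and from 59.2 ± 3.26 to 425 ± 53.1 CPM in MEFs, a difference of log2 fold changes of 2.708. Bag2, a co-chaperone of HSP70, went from 72.9 ± 3.29 to 32.2 ± 1.26 CPM in preadipocytes and from 17.1 ± 1.16 to 27.7 ± 2.696 CPM in MEFs, a difference of log2 fold changes of 1.877. Pgd, an enzyme of the pentose phosphate pathway, went from 213 ± 13.6 to 286 ± 21.3 CPM in preadipocytes and from 165 ± 6.83 to 691 ± 20.9 CPM in MEFs, a difference of log2 fold changes of 1.647. Bpgm, bisphosphoglycerate mutase, went from 53.4 ± 6.54 to 14.7 ± 0.536 CPM in preadipocytes and from 14.9 ± 0.793 to 17.5 ± 1.78 CPM in MEFs, a difference of log2 fold changes of 2.092. Adamtsl2, a secreted glycoprotein of the matrix, went from 2.03 ± 0.490 to 20.3 ± 3.43 CPM in preadipocytes and from 17.5 ± 1.52 to 8.06 ± 0.555 CPM in MEFs, a difference of log2 fold changes of -4.441. Il33, a cytokine, went from 15.7 ± 4.32 to 98.9 ± 22.3 CPM in preadipocytes and from 32.3 ± 4.49 to 2.21 ± 0.623 CPM in MEFs, a difference of log2 fold changes of -6.515. Hpse, heparanase, went from 15.8 ± 0.549 to 19.1 ± 0.690 CPM in preadipocytes and from 44.4 ± 9.74 to 8.26 ± 0.318 CPM in MEFs, a difference of log2 fold changes of -2.695. Prkacb, a catalytic subunit of protein kinase A, went from 106 ± 1.56 to 99.6 ± 1.69 CPM in preadipocytes and from 145 ± 1.58 to 72.1 ± 0.933 CPM in MEFs, a difference of log2 fold changes of -0.9227. Values are mean ± SD of 3 libraries, with CPM scaled over the libraries of this test. Cell type, embryonic origin and day of harvest cannot be told apart.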

How the results depend on the processing

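Of 15139 genes, 3330 were called, and DESeq2, limma-voom, scaling by library size, no filter on low counts, a filter at 0.5 CPM and a fit of 24 libraries gave 3351 to 3908, with no call of opposite sign and a share of higher genes of 44.05% to 47.06%. Without a fold threshold 5123 genes were called (2488 higher), and with a log2 fold change of 1 or more in size there were 1983 (753 higher, 1230 lower). Leaving out single libraries gave 2692 to 3440 (1167 to 1539 higher, 1501 to 1901 lower). With replicate number as a block 3366 were called (1487 higher, 1879 lower). Libraries with the same number had correlated deviations of -0.135, -0.107 and 0.493, the last for replicate 3. The labels do not say whether such libraries share a source, and the main test used no pairing. For the DKO difference the count of 2 became 66 in DESeq2, 4 without a filter, 0 with replicate number within genotype as a block and 0 to 1 when single libraries were left out. For the MEF difference the count of 2132 was 1925 with replicate number within cell type as a block and 1501 to 2969 when single libraries were left out. Among named genes and differences, 291 values over all alternatives lost a call and 24 gained one. The genes whose sign turned were all not called. Over the refits that each omit 1 library, the log2 fold change ran from -0.29889 to 0.33532 for Mmp3, -0.019776 to 0.15406 for Hmgn1, -0.4083 to 0.39555 for Cox7a1, -0.030618 to 0.25006 for Jun, -0.19405 to 0.32974 for Col5a3, -0.15281 to 0.023108 for Irf1, -0.21479 to 0.10777 for Tap1, -0.38714 to 0.11412 for Psmb9 and -0.37035 to 0.41377 for Ebf2. Psmb9 also turned in limma-voom (0.090333) and Ebf2 with the block (0.022342). The cause of these shifts was not tested.

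With 3 libraries a day, 56.5% of simulated 2-fold changes and 88.5% of simulated 4-fold changes were recovered. Only 200 of 15139 genes were changed in these simulations, whereas 22% of the tested genes were called in the data. Recovery with so large a share of changed genes was not tested. A missed call does not show that a gene kept its level. The same simulations gave 7 false calls beside 113 recovered genes at 2-fold and 22 beside 177 at 4-fold. For the DKO interaction, with 200 of 15999 genes changed, 35% of simulated 2-fold and 70.5% of simulated 4-fold differences were recovered. Leaving out a library leaves its day with 2. Intervals on count ratios cover counting error only.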

Other observations

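Some members of AP-1, a family of immediate early transcription factors, were called. Of 13 tested members (16 listed) Fos, Junb and Fosl1 rose and Jdp2, a repressor of the family, fell, with a median log2 fold change of 0.37, beside 9.76% higher and 12.2% lower over all genes. Junb went from 41.3, 29.9 and 28.9 to 69.4, 53.8 and 50.5 CPM and Jdp2 from 42.7, 40.6 and 42.2 to 20.5, 21.7 and 14.7 CPM, both without overlap (log2 fold changes 0.80 ± 0.18 and -1.14 ± 0.15, edgeR adjusted p = 0.0158 and 0.00197). Junb lost its call without replicate 2 of day 0 (0.65 to 0.98 on the log2 scale over refits without 1 library) and Fosl1 without any library but replicate 3 of day 3 (0.89 to 1.38). When single libraries were left out, 1 member rose without replicate 2 of day 0 and 3 fell without replicate 1 of day 3. Jun had 56.1, 44.6 and 38.5 CPM and then 57.1, 41.8 and 48.4 CPM, which overlap, and was not called (edgeR adjusted p = 0.718).

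Few glycolysis genes were called. Of 26 genes, all tested, Slc16a1, a lactate transporter, and Ldhb rose and Aldoc, an aldolase, fell, with a median of 0.04 (-0.0048 without replicate 2 of day 3), and the summed level of the list was 13169 to 14235 CPM at day 0 and 12438 to 16319.9 CPM at day 3. Slc16a1 went from 44.7, 43.5 and 60.4 to 147, 184 and 249 CPM and Aldoc from 4.26, 5.19 and 6.65 to 1.302, 1.23 and 1.88 CPM (log2 fold changes 1.97 ± 0.23 and -1.84 ± 0.27, edgeR adjusted p = 0.00171 and 0.00305). The number that rose was 1 without replicate 1 or 3 of day 0 or replicate 1 or 3 of day 3, and 2 fell without replicate 3 of day 0.

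Levels of further cell type markers were as follows. Summed levels of 8 epithelial markers were 8.32 to 13.2 CPM at day 0 and 0.875 to 1.48 CPM at day 3, and the pair tested, Krt18 and Cldn3, fell (log2 fold changes -3.27 ± 0.28 and -4.84 ± 0.58). The 8 mesothelial markers summed to 12.6 to 43.1 CPM and then 8.66 to 47.4 CPM, and the 6 Schwann cell markers to 20.9 to 45.3 CPM and then 26.5 to 69.4 CPM. Of the mesothelial markers 3 were tested and Bnc1 fell, or 3 fell without replicate 3 of day 0. Of the Schwann cell markers S100b fell, and this number was 0 to 1 when single libraries were left out. The 8 skeletal muscle markers summed to 91.8 to 109.7 CPM and then 5.35 to 9.83 CPM. Most of this was Acta1, also listed as contractile, which fell (108, 90.6 and 109 CPM, then 8.71, 7.21 and 4.24 CPM). Mylpf, a myosin light chain, rose (2.94 ± 0.72 on the log2 scale), with 54 counts over the day 3 libraries. The number of these markers that rose was 0 to 1 when single libraries were left out.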
